A study of Mus musculus with 12 samples.

Results

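Nuclear genes for the subunits of the mitochondrial respiratory chain and of ATP synthase were followed, complex by complex, in RNA-seq of mouse bone marrow-derived macrophages (BMDMs). Members were the rows of the expression table with symbols that start with Nduf and a letter of a, b, c, s or v with a digit, with Uqcr, with Cox4 to Cox8 and a letter, or with Atp5 and a letter, together with Sdha, Sdhb, Sdhc and Sdhd. Pseudogene symbols (-ps) and Atp5if1, Atp5s and Atp5sl were left out. This gave 62 of 38739 symbols, with 22 for complex I, 4 for complex II, 8 for complex III, 16 for complex IV and 12 for complex V. Ndufa4 and Ndufa4l2 were counted with complex IV, of which Ndufa4 is a subunit. Of 86 annotated protein-coding genes with such symbols, 26 without a row lie on chromosome 13 or later, and those were not analysed here.

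The 12 samples formed 4 groups of 3: wild-type (WT) untreated (UT), WT with lipopolysaccharide (LPS), cGAS-/- UT and cGAS-/- LPS. cGAS is a cytosolic sensor of double-stranded DNA. The cGAS-/- mice lacked the gene in all cells, and both genotypes were male mice of a C57BL/6J background, 8 weeks old. UT cells received media control. The sample labels state 100 ng/mL of LPS from E. coli for 1 h, whereas the methods state a higher dose and a longer time, so the exposure is uncertain. The labels also name neutrophils in the RNA extraction step, while the cell type given is macrophage. The replicates are described as technical, so p-values measure only the spread between these samples. Values are in TPM (a read share corrected for transcript length), taken as the mean over all transcripts under a symbol, and the number of reads behind them is unknown.

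Oxidative phosphorylation runs through 5 complexes in the inner mitochondrial membrane. Complex I oxidizes NADH and complex II oxidizes succinate. Both pass electrons through ubiquinone to complex III, and from there cytochrome c carries them to complex IV, which reduces oxygen. Complexes I, III and IV pump protons, and complex V, the ATP synthase, uses the gradient to make ATP. A few core subunits of complexes I, III, IV and V are encoded by mitochondrial DNA, and the genes described here are the nuclear ones. Macrophages activated by LPS are known for a shift from respiration towards glycolysis and for succinate oxidation at complex II.

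Promoter windows are shown for 4 members that the results below turn on, Cox5a and Sdhb as members that were higher after LPS in cGAS-/- cells and Sdha and Uqcrfs1 as members that were lower on the deposited scale. Each window runs from 250 bases before to 50 bases after the start of the gene in RefSeq (build GRCm38.p6), 5′ to 3′ on the strand of the gene, and capitals mark matches of 7 motifs searched on both strands. The windows are Cox5a on the plus strand at chr9:57520982-57521281, Sdhb on the plus strand at chr4:140961021-140961320, Sdha on the minus strand at chr13:74350191-74350490 and Uqcrfs1 on the minus strand at chr13:30545267-30545566.
Cox5a: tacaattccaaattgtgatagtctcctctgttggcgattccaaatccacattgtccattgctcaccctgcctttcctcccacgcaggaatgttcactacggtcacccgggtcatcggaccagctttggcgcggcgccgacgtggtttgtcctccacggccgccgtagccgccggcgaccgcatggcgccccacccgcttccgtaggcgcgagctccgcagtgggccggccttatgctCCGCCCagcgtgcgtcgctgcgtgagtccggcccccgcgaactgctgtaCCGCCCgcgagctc
Sdhb: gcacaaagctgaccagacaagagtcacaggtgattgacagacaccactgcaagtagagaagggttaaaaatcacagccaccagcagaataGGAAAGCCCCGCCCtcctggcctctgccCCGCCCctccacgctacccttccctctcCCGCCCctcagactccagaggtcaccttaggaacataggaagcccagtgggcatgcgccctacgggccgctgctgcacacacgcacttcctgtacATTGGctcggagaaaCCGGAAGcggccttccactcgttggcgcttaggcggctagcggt
Sdha: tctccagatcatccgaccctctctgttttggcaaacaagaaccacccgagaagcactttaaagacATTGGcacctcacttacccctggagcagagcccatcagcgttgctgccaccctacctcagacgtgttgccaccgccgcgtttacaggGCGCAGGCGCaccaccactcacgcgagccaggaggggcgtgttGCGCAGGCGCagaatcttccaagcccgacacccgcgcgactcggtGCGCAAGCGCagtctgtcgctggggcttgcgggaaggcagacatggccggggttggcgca
Uqcrfs1: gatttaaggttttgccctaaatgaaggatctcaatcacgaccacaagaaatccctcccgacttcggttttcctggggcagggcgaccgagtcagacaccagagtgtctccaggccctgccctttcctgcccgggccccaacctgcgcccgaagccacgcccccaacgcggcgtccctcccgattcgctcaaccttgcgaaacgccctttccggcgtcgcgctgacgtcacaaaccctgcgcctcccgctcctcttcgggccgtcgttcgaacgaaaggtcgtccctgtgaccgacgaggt
The Cox5a window held 2 matches, both of the GC box. In the Sdhb window the 6 matches were 1 kappa B site joined to the first of 3 GC boxes, a CCAAT box and an ETS site. The Sdha window held a CCAAT box and 3 matches of the NRF1 letters, and the Uqcrfs1 window held 0 matches.

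A window was listed for 48 of the 62 members, and the same letters were counted in 27025 promoters of all genes. The NRF1 motif (GCGC, any base, TGCGC), bound by nuclear respiratory factor 1, was in 11 member promoters, or 22.9%, against 4.78% of all. The ETS motif (CCGGAAG), the core bound by the GABP factor also called NRF2, was in 13, or 27.1%, against 9.12%. The YY1 motif (AAGATGG) was in 7, or 14.6%, against 6.48%. The GC box (GGGCGG) was in 37.5% against 35.9%, the CCAAT box (CCAAT) in 45.8% against 37.9%, the TATA box (TATAAA) in 12.5% against 14.2%, and the kappa B motif (GGG, any 2 bases, TTTCC) in 1 member promoter, that of Sdhb, or 2.08% against 1.62%. A match is a description of the letters only.

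Of the 62 members, 55 passed the filter on low values (at least 1 TPM in 3 samples): 21 of complex I, all 4 of complex II, all 8 of complex III, 10 of complex IV and all 12 of complex V. The 7 that did not pass were Ndufs6b of complex I and 6 tissue forms of complex IV. Cox7b2, Cox8b, Cox8c and Ndufs6b were listed at 0 in all 12 samples. Cox4i2, the lung form of subunit 4, reached 0.486 TPM at most and Cox6b2, a testis form, 0.237 TPM. Ndufa4l2, a hypoxia-induced paralog of Ndufa4, was at 0.11, 0.263 and 0.992 TPM in WT UT and at 1.05, 0.438 and 0 TPM in WT LPS, and in cGAS-/- cells it was at 0.231 TPM in 1 UT sample and at 0 in the other 5.

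Levels within a complex were uneven. In WT UT cells the complex I means ran from 3.75 TPM for Ndufs1, the iron-sulphur subunit that takes electrons in the NADH-binding arm, to 146 TPM for Ndufa8, an accessory subunit. Complex II ran from 18.6 TPM for Sdha, the flavoprotein that oxidizes succinate, to 97.4 TPM for Sdhd, a membrane anchor. Complex III ran from 12.3 TPM for Uqcrc2 to 139 TPM for Uqcrb. These orders also depend on how many transcripts a symbol was averaged over, which ran from 1 to 163 among members and was highest for Ndufs1. Complex IV ran from 1.26 TPM for Cox6a2, the heart and muscle form of subunit 6A, to 409 TPM for Cox6c2, a copy of Cox6c. Complex V ran from 30.6 TPM for Atp5c1, the gamma subunit of the rotor, to 144 TPM for Atp5k, a small membrane subunit. The same genes were lowest and highest in cGAS-/- UT cells. For 17 members another gene held a near-identical copy over at least 50% of the transcript (95% identity or more), and their values are uncertain where reads were shared, Cox6c2, Atp5k and Uqcrb among them.

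In whole cultures, fewer cells of a type and less RNA per cell cannot be told apart. Cgas was at 1.19 to 3.25 TPM in WT and at 0.0703 to 0.29 TPM in cGAS-/- samples. Of 12 macrophage markers 9 were listed, with sums of 17920 to 35000 TPM. The sum of 7 neutrophil markers was 139 to 213 TPM in WT UT, 353, 86.2 and 35.5 TPM in WT LPS samples 1, 2 and 3, 52.9 to 126 TPM in cGAS-/- UT and 46.4 to 59.9 TPM in cGAS-/- LPS, and that of 5 erythroid markers was 37.4, 5.36 and 1.56 TPM in the WT LPS samples and 2.66 to 17.8 TPM elsewhere. The summed level of 6 B cell markers was 108 to 134 TPM in WT UT, 30.6 to 44.9 in WT LPS, 19.9 to 28.5 in cGAS-/- UT and 3.04 to 8.84 in cGAS-/- LPS. That of 4 fibroblast and stroma markers was 5.65 to 16.5 TPM in WT and 2.0 to 3.71 TPM in cGAS-/- samples. The sum of 6 dendritic cell markers was 6.97 to 7.38 TPM in WT UT, 1.96 to 2.5 in WT LPS, 3.86 to 6.18 in cGAS-/- UT and 1.22 to 2.40 in cGAS-/- LPS. The part of these markers in the results was not tested. The column totals were 447189 to 503156 TPM in 11 samples and 709802 TPM in WT LPS sample 3, where 1 symbol, Fth-ps3, took 31.8% of the total, against 6.24% to 17.7% in the others.

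**Figure D1:**
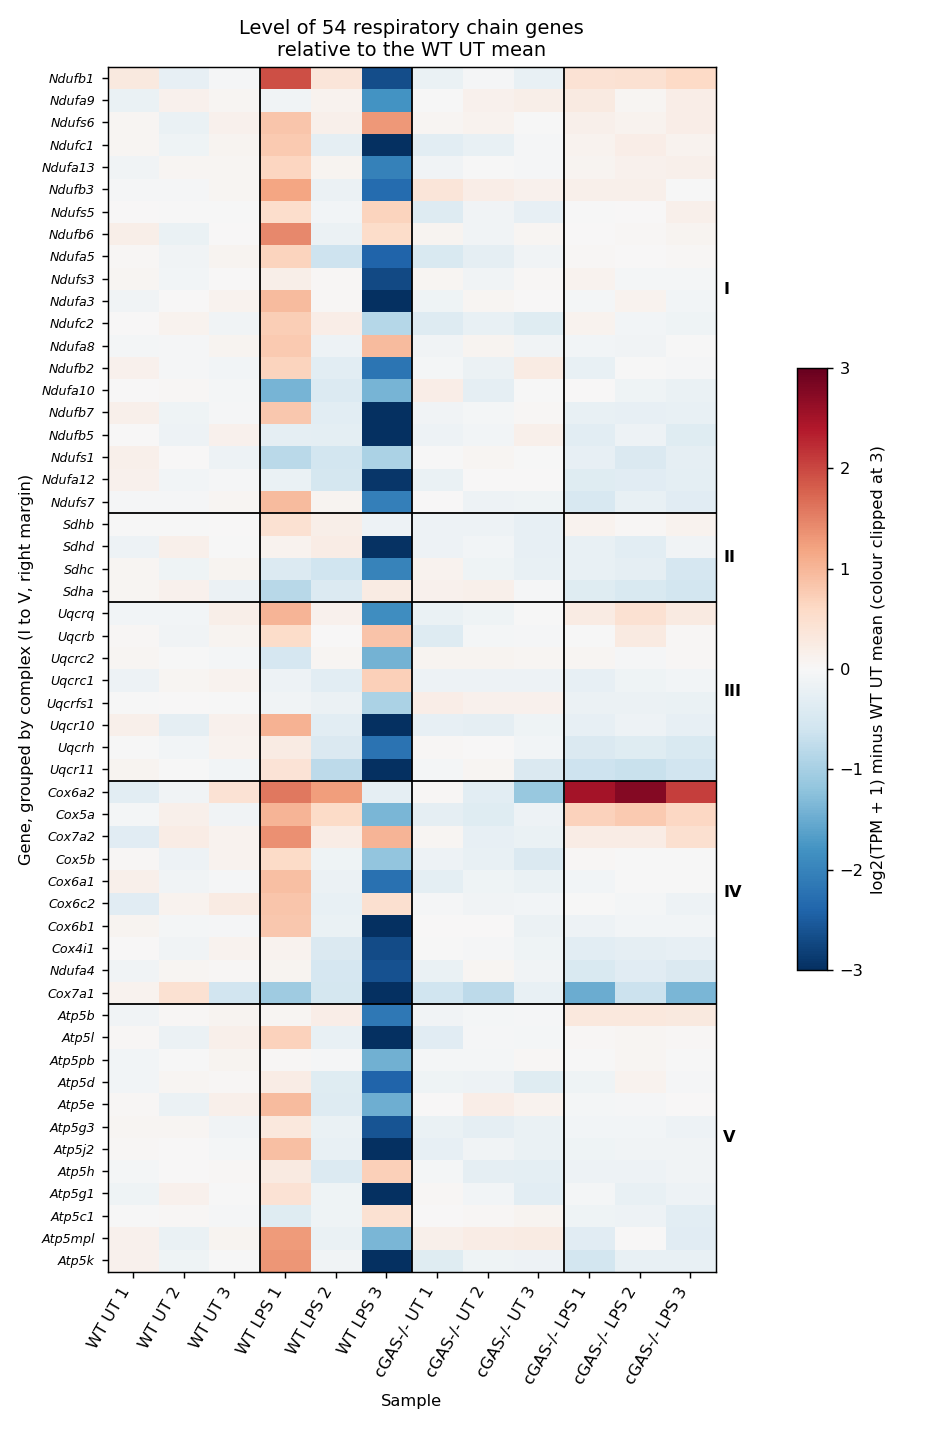
Level of 54 of the members tested in every sample, as log2(TPM + 1) minus the mean of that gene over the 3 WT UT samples, with rows grouped by complex. The other 3 groups are even across samples, WT LPS sample 1 is mostly above 0 and WT LPS sample 3 mostly far below 0.

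The 3 WT LPS samples did not agree on the members. WT LPS sample 1 was above sample 2 at 45 of the 55 members, and sample 3 was the lowest of the 3 at 44. The members summed to 1.11%, 0.64% and 0.287% of the sample total in WT LPS samples 1, 2 and 3, against 0.732% to 0.775% in WT UT, 0.652% to 0.678% in cGAS-/- UT and 0.636% to 0.652% in cGAS-/- LPS. Relative to the mean of the cGAS-/- LPS samples, the median member was at 0.52, -0.10 and -2.08 on the log2(TPM + 1) scale in WT LPS samples 1, 2 and 3, whereas the median of all genes tested was at -0.22, 0.10 and -0.54. The SD of a member over the 3 samples had a median of 1.33 in WT LPS, against 0.11 in WT UT, 0.098 in cGAS-/- UT and 0.077 in cGAS-/- LPS. Over all genes tested it was 0.63 in WT LPS and 0.12 to 0.15 in the other groups.

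All 5 complexes showed the same order of the WT LPS samples. The complex I median, on the log2(TPM + 1) scale, was 5.71, 4.77 and 2.61 in WT LPS samples 1, 2 and 3, and 4.92 to 5.11 in WT UT. Complex II was at 5.61, 5.38 and 4.13, against 5.52 to 5.63. Its summed level in sample 3, 84.6 TPM, was below the 209 and 213 TPM of the other WT LPS samples. Complex III was at 6.37, 5.59 and 3.70, against 5.80 to 5.95, and complex IV at 6.72, 5.94 and 4.13, against 5.79 to 5.98. Complex V was at 6.09, 5.58 and 3.71, against 5.53 to 5.67. Sample 1 was thus above the WT UT range in complexes I, III, IV and V and within it in complex II, and sample 3 was below it in all 5.

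**Figure D2:**
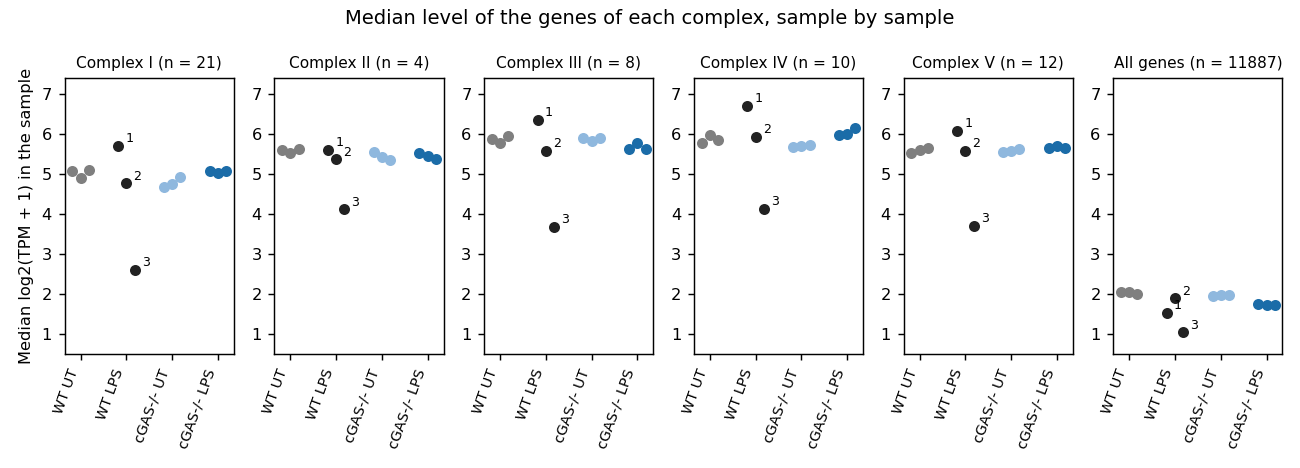
Median log2(TPM + 1) of the members tested in complexes I to V and of all genes tested, per sample, with WT LPS samples marked by their number. In complex I the 3 WT LPS samples span 2.61 to 5.71, while the other groups stay between 4.68 and 5.11.

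WT LPS sample 3 was not low at every member. It was the highest of the 3 WT LPS samples at 8 members, Ndufa8, Ndufs5 and Ndufs6 of complex I, Sdha of complex II, Uqcrb and Uqcrc1 of complex III, and Atp5c1 and Atp5h of complex V, and it lay between the others at Ndufb6, Cox6c2 and Cox7a2. Ndufs6, an accessory subunit of the NADH-binding arm, was at 42.7, 26.3 and 59.5 TPM in WT LPS samples 1 to 3. Sdha was at 10.0, 13.8 and 22.3 TPM. Atp5j2, a membrane subunit of the ATP synthase, was at 128, 58.1 and 3.21 TPM. Sample 3 therefore ranged from above to far below the other samples within 1 complex. Transcript length moved with the values: across the 54 members with an annotated length, Spearman's rho with the difference from the cGAS-/- LPS mean was -0.49 in sample 1, -0.04 in sample 2 and 0.27 in sample 3, a description over genes that share these libraries. Members with transcripts under 1000 bases (26) had a median difference of 0.81 in sample 1 and -2.21 in sample 3, and the 28 longer ones 0.15 and -1.87. The part of transcript length in the results was not tested.

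**Figure D3:**
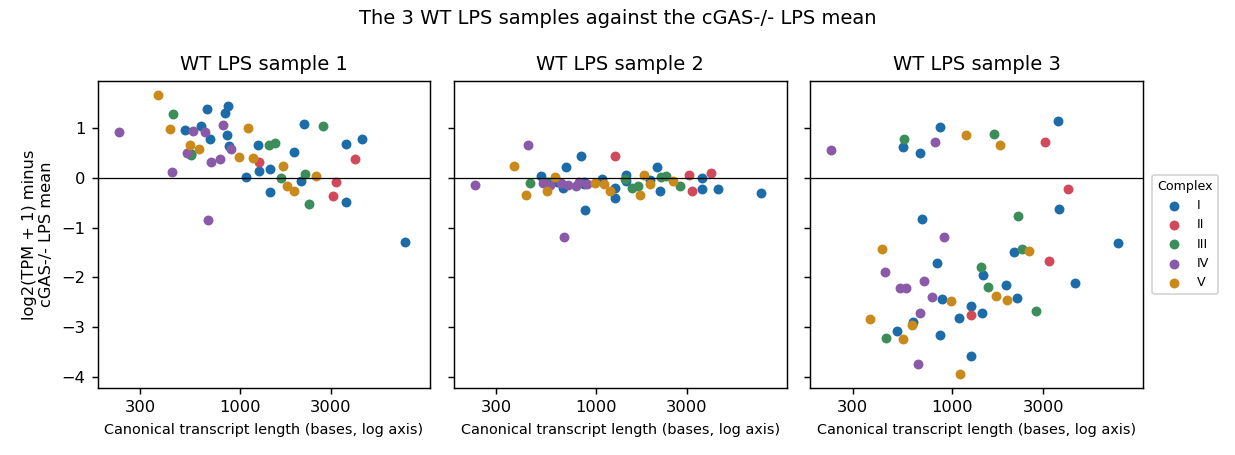
Difference of each WT LPS sample from the mean of the 3 cGAS-/- LPS samples on the log2(TPM + 1) scale, against transcript length in bases on a log axis, 1 point per member and 1 colour per complex. Points of sample 2 lie near 0, those of sample 1 fall with length, and those of sample 3 lie mostly below 0, with a median of -2.08 and a separate set of members above 0.

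LPS was compared with UT in cGAS-/- cells, where the samples of both groups were close together. The median member was at 0.003 on the log2(TPM + 1) scale for cGAS-/- LPS minus cGAS-/- UT, while the median of all genes tested was -0.20. By complex the medians were 0.003 for I, -0.15 for II, -0.02 for III, 0.09 for IV and 0.06 for V. With TMM factors (a rescaling that centres the bulk of genes) they became 0.28, 0.14, 0.25, 0.38 and 0.34, with all genes at -0.02, so relative to all genes the median of every complex was above 0 on both scales, by 0.05 to 0.29 as deposited and by 0.16 to 0.40 with TMM. With quantile normalization the median of all members was 0.03, against -0.04 for all genes, and complex II fell below all genes, at -0.17. With a common total the members were at -0.08 and all genes at -0.25. The direction of the members as a whole, and in complex II also that relative to all genes, thus depended on the scaling.

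In the limma fit of all 12 samples, 1 of the 55 members was called at an adjusted p under 0.05 (Benjamini-Hochberg over all genes), against 13.8% of all genes tested (4.76% higher and 9.06% lower), and it also passed the study's threshold of 2 on the log2 scale, as 3.5% of all genes did. That fit takes 1 spread per gene from all 4 groups, WT LPS included. Fitted on the 6 cGAS-/- samples alone, 14 members were higher and 11 lower, 45.5% of those tested, and 44.6% of all genes tested were called there. All genes divided into 12.7% higher and 32.0% lower. By complex the counts higher and lower were 6 and 3 of 21 for complex I, 1 and 1 of 4 for complex II, 1 and 3 of 8 for complex III, 5 and 2 of 10 for complex IV, and 1 and 2 of 12 for complex V. Samples of the groups did not overlap at 31 members, 18 higher and 13 lower, or 56.4%, against 55.7% of all genes (15.5% higher and 40.2% lower). In 9 samples without the WT LPS group, 13 members were higher and 11 lower, against 12.7% and 31.9% of all genes. Without WT LPS sample 3 alone, Cox6a2, Cox5a and Atp5b were higher and Sdha and Uqcrfs1 lower, against 9.19% and 21.6% of all genes. With TMM factors in the fit of the cGAS-/- samples, 32 members were higher and 0 lower, against 19.5% of all genes higher and 18.8% lower. All 14 higher members were called under both scalings and none of the 11 lower ones was.

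Complex IV held the members with the highest differences. Cox6a2, on the minus strand at chr7:127804607-127805559 (GRCm39), was at 1.24, 0.756 and 0 TPM in cGAS-/- UT and at 11.4, 13.9 and 8.30 TPM in cGAS-/- LPS. Its groups did not overlap, and it was the member called in the fit of all samples, with a log2 difference of 2.92 ± 0.47 (SE, n = 3 against 3, limma adjusted p = 0.00142). Cox6a1, the ubiquitous form of the same subunit, was at 185, 208 and 197 TPM in UT and at 216, 227 and 225 TPM in LPS. It was higher by 0.18 ± 0.05 in the fit of the cGAS-/- groups (adjusted p = 0.0351). The ratio of Cox6a2 to Cox6a1 is unchanged when a sample is multiplied by a constant. It was 0.00672, 0.00363 and 0 in UT and 0.0527, 0.0614 and 0.0368 in LPS, with every LPS sample above every UT sample.

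Cox5a, a subunit on the matrix side of complex IV, was at 47.8, 44.2 and 51.8 TPM in cGAS-/- UT and at 93.5, 100 and 89.3 TPM in cGAS-/- LPS. All 3 LPS samples were above all UT samples. The log2 difference was 0.96 ± 0.07 in the fit of the cGAS-/- groups (limma adjusted p = 0.000181), and 0.96 ± 0.13 in the fit without WT LPS sample 3 (adjusted p = 0.00038), but the adjusted p was 0.254 with all 12 samples. Cox4i1, the ubiquitous form of subunit 4, was at 85.4, 84.5 and 79.2 TPM in UT and at 69.2, 71.2 and 72.5 TPM in LPS, and was lower by 0.22 as deposited but higher by 0.06 with TMM factors. The ratio of Cox4i1 to Cox5a was 1.53 to 1.91 in UT and 0.713 to 0.811 in LPS, with no overlap. These subunits of 1 complex changed unequally under every scaling used. Cox7a2 (0.43) and Cox5b (0.27) were also higher, and Ndufa4 (-0.33) was lower as deposited and at -0.04 with TMM. Cox7a1, a muscle form, was at 3.83 to 6.14 TPM in UT and 1.97 to 4.32 TPM in LPS and was not called. Cox6b1, the ubiquitous form of subunit 6B, had a log2 difference of -0.05 and was not called as deposited, and was higher by 0.24 with TMM factors (adjusted p = 0.0342).

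The 4 genes of complex II went different ways. Sdha was at 20.2, 20.8 and 18 TPM in cGAS-/- UT and at 14.3, 13.2 and 12.4 TPM in cGAS-/- LPS. Sdhb, the iron-sulphur subunit that takes electrons from Sdha, was at 38.4, 38.4 and 36.0 TPM in UT and at 46.0, 44.2 and 46.5 TPM in LPS. At neither gene did the groups overlap, with Sdha lower and Sdhb higher after LPS. In the fit of the cGAS-/- groups, Sdha was at -0.53 ± 0.08 (adjusted p = 0.00306) and Sdhb at 0.27 ± 0.04 (adjusted p = 0.00452), and with TMM factors at -0.26 (adjusted p = 0.0527) and 0.55 (adjusted p = 0.000293). The ratio of Sdha to Sdhb was 0.50 to 0.542 in UT and 0.266 to 0.311 in LPS. The membrane anchors Sdhc and Sdhd were not called, with log2 differences of -0.24 and -0.06.

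In complex III, Uqcrfs1, the Rieske iron-sulphur protein, was at 58.7, 55.5 and 55.5 TPM in cGAS-/- UT and at 44.8, 44.8 and 44.0 TPM in cGAS-/- LPS, lower without overlap by 0.34 ± 0.04 (adjusted p = 0.00104 in the fit of the cGAS-/- groups). Uqcrh, the hinge protein, was at 69.7, 68.0 and 64.3 TPM in UT and 50.1, 52.5 and 49.0 TPM in LPS, lower by 0.41, and Uqcr11 was lower by 0.48. With TMM factors these 3 were at -0.05, -0.12 and -0.19 and were not called. Uqcrq, a small subunit, was the complex III member that was higher, from 35.2 to 39.9 TPM in UT to 47.9 to 55.9 TPM in LPS, and stayed higher with TMM. Uqcrc1 and Uqcrc2, the large proteins on the matrix side, had log2 differences of 0.007 and -0.05 and were called as higher with TMM factors alone, by 0.28 (adjusted p = 0.0136) and 0.22 (adjusted p = 0.0156).

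In complex I the members that were higher as deposited were accessory subunits, as were most of the complex I members tested. Ndufb1, an accessory subunit at the far end of the membrane arm, was at 21.7, 24.3 and 21.4 TPM in cGAS-/- UT and at 33.9, 34.6 and 38.7 TPM in cGAS-/- LPS. The groups did not overlap, and the log2 difference was 0.65 ± 0.08 (adjusted p = 0.00115 in the fit of the cGAS-/- groups). The others were Ndufc1 (0.32), Ndufs5 (0.31), Ndufa5 (0.30), Ndufc2 (0.29) and Ndufa13 (0.18), the last also known as GRIM-19. The 3 that were lower as deposited were Ndufs1, Ndufa12 (-0.28) and Ndufb7 (-0.18), and with TMM factors Ndufa12 and Ndufb7 were at 0.007 and 0.10. Ndufs1 was at 3.68, 3.89 and 3.70 TPM in UT and at 2.98, 2.48 and 2.93 TPM in LPS. It was lower without overlap by 0.33 ± 0.08 (adjusted p = 0.0209), and at -0.11 with TMM (adjusted p = 0.362). The core subunits Ndufs3 (0.007) and Ndufs7 (-0.25) were not called as deposited, and with TMM factors Ndufs3 was higher by 0.28 (adjusted p = 0.0325).

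In complex V, Atp5b, the catalytic beta subunit, was at 47.6, 48.6 and 50.1 TPM in cGAS-/- UT and at 63.4, 64.0 and 63.2 TPM in cGAS-/- LPS. It was higher in 3 of 3 samples, by 0.38 ± 0.03 (adjusted p = 0.000425 in the fit of the cGAS-/- groups), and by 0.66 with TMM. Atp5c1 of the rotor was at 30.9 to 32.4 TPM in UT and 24.5 to 28.0 TPM in LPS, lower by 0.24 as deposited and higher by 0.04 with TMM. Atp5mpl, a small proteolipid, was lower by 0.43 as deposited and at -0.15 with TMM. The c-ring genes Atp5g1 and Atp5g3 had log2 differences of -0.03 and 0.11 and were not called as deposited, and with TMM factors Atp5g3 was higher by 0.40 (adjusted p = 0.000738). Atp5d, the delta subunit of the rotor stalk, was likewise not called as deposited, at 0.19 (adjusted p = 0.14), and was higher by 0.48 with TMM factors (adjusted p = 0.0108).

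**Figure D4:**
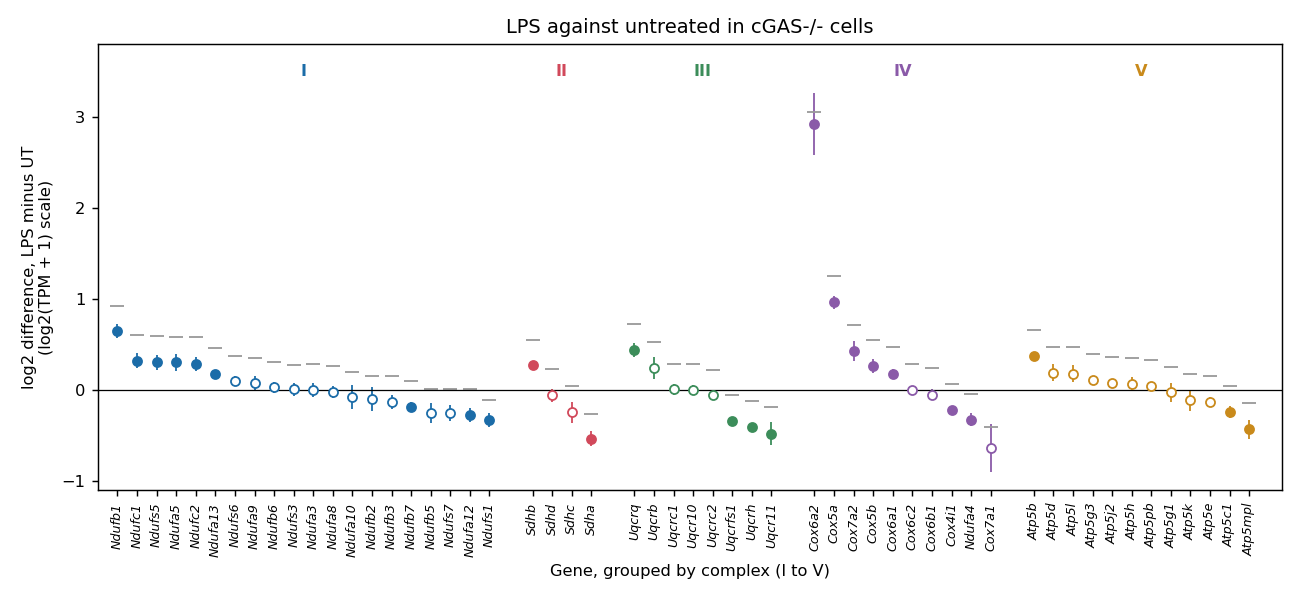
Log2 difference of cGAS-/- LPS minus cGAS-/- UT with its SE (n = 3 per group) for 54 of the members tested, ordered within complexes I to V, in the fit of the cGAS-/- groups, with filled points for adjusted p under 0.05 and grey dashes for the difference with TMM factors. The points spread to both sides of 0 in every complex, with Cox6a2 at 2.92 and Cox5a at 0.96 as the highest and Cox7a1 at -0.64 as the lowest.

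Genotype was compared next in UT cells. The median member was at -0.09 for cGAS-/- minus WT, against -0.04 for all genes, with 12 members above 0 and 43 below as deposited, but 27 above and 28 below with quantile normalization. In the fit of all 12 samples 0 members were called, against 1.83% of all genes, and 0 members had an unadjusted p under 0.05, as 8.08% of all genes did. Fitted on the 6 UT samples alone, 2 were lower, against 7.07% of all genes lower, and in 9 samples without the WT LPS group 1 was higher and 5 lower, against 4.62% and 9.17%. Among the 2 was Ndufc2, at 84.9, 90.6 and 79.1 TPM in WT and 64.8, 72.1 and 65.5 TPM in cGAS-/- cells (-0.33 ± 0.07, adjusted p = 0.0404). Every cGAS-/- sample was below every WT sample there. With TMM factors neither call was kept, with Ndufc2 at -0.27 (adjusted p = 0.0557), and Uqcrfs1 was higher (0.22, adjusted p = 0.0338), against 4.57% of all genes.

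By complex the UT medians were -0.04 for I, -0.12 for II, -0.13 for III, -0.17 for IV and -0.13 for V. All 10 members of complex IV were below 0 as deposited and with TMM over the 12 samples, 9 of 10 were with TMM over the 6 UT samples, and 7 of 10 were with quantile normalization. Samples did not overlap at 15 of 55 members, 4 higher and 11 lower in cGAS-/- cells, or 27.3%, against 30.5% of all genes (12.1% higher and 18.4% lower). The 4 higher were Ndufb3, Uqcrfs1, Uqcrc2 and Atp5mpl. Sdhb was at 42.2, 42.9 and 43.5 TPM in WT and 38.4, 38.4 and 36.0 TPM in cGAS-/- UT, without overlap (-0.18, adjusted p = 0.0575 in the fit of the UT samples). Cox5a, at 55.4, 63.8 and 53.5 TPM in WT UT, was also above the cGAS-/- UT samples (-0.26, adjusted p = 0.151).

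LPS in WT cells gave a different picture with and without WT LPS sample 3. With all samples, the median member was at -0.61 for WT LPS minus WT UT, against -0.46 for all genes, and 2 members were lower and 0 higher, against 27.6% of all genes called (23.3% lower and 4.31% higher). Without sample 3 the median was 0.22, against -0.29 for all genes, and 5 members were higher and 4 lower, against 8.26% and 26.5% of all genes. Leaving out WT LPS sample 1 instead gave 0 higher and 10 lower, against 5.73% and 22.4% of all genes, and leaving out sample 2 gave 8 higher and 7 lower, against 5.58% and 43.1%. By complex the medians with and without sample 3 were -0.61 and 0.25 for I, -0.60 and -0.17 for II, -0.51 and -0.12 for III, -0.37 and 0.31 for IV, and -0.64 and 0.14 for V. The sign thus turned in complexes I, IV and V and stayed negative in II and III. With TMM factors and all samples the medians were -0.06, 0.07, 0.14, 0.32 and 0.04 for complexes I to V, with all genes at -0.09, and 3 members were higher and 0 lower, against 7.75% and 12.3% of all genes. Samples did not overlap at 9 members, 2 higher and 7 lower, or 16.4%, against 38.2% of all genes (5.31% higher and 32.9% lower).

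Both members lower with all samples belonged to complex I. Ndufa10, an accessory subunit of the membrane arm, was at 15.4, 15.8 and 14.7 TPM in WT UT and at 5.19, 11.3 and 5.14 TPM in WT LPS (-1.07 ± 0.28, adjusted p = 0.018). Ndufs1 was at 4.25, 3.74 and 3.25 TPM in WT UT and at 1.69, 2.25 and 1.45 TPM in WT LPS (-0.77 ± 0.18, adjusted p = 0.00984). At both genes all 3 LPS samples were below all UT samples. Without sample 3 they were still lower, at -0.90 (adjusted p = 0.0206) and -0.68 (adjusted p = 0.00446), but with TMM factors they were at -0.44 and -0.27 and were not called, and neither was called in the fit of the WT groups alone (adjusted p = 0.165 and 0.168). That limma fit called 0 members, against 6.02% of all genes, with 2 members at an unadjusted p under 0.05, as 25.2% of all genes were.

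Without WT LPS sample 3, with the variance still taken from all remaining samples, the members higher in WT LPS were Cox6a2 (1.42, adjusted p = 0.0122), Ndufb1 (1.15, adjusted p = 0.0326), Cox5a (0.80, adjusted p = 0.00263), Ndufc2 (0.46, adjusted p = 0.0441) and Sdhb (0.32, adjusted p = 0.0383). The members lower besides Ndufa10 and Ndufs1 were Sdha (-0.61, adjusted p = 0.0123) and Sdhc (-0.50, adjusted p = 0.0191). Cox6a2 was at 0.758, 1.03 and 1.98 TPM in WT UT and at 5.63, 4.24 and 0.825 TPM in WT LPS, so sample 3 lay within the UT range. Cox5a was at 118, 85.3 and 21.6 TPM in WT LPS, with samples 1 and 2 above and sample 3 below all UT samples. Sdha was at 19.2, 20.4 and 16.3 TPM in WT UT, with samples 1 and 2 of WT LPS below and sample 3 above that range. The Sdha to Sdhb ratio was 0.375 to 0.475 in WT UT and 0.169, 0.285 and 0.579 in WT LPS samples 1, 2 and 3. The Cox4i1 to Cox5a ratio was 1.25 to 1.74 in WT UT and 0.782, 0.743 and 0.586 in WT LPS, lower in all 3 samples including sample 3.

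The members that changed in cGAS-/- cells were set beside each WT LPS sample, which share no control sample with them. Of the 14 members higher in cGAS-/- LPS, 13 were above all WT UT samples in WT LPS sample 1, 8 in sample 2 and 2 in sample 3, and 0, 4 and 11 were below all of them. Of the 11 lower, 5, 10 and 9 were below all WT UT samples in WT LPS samples 1, 2 and 3, and 5, 0 and 2 were above. Over the 30 members not called in cGAS-/- cells, samples 1, 2 and 3 were above all WT UT samples at 20, 4 and 7 and below all of them at 7, 16 and 23. Cox7a2 was the member of the 14 that was above all WT UT samples in all 3 WT LPS samples, and Ndufa12, Ndufs1 and Uqcrfs1 were the members of the 11 that were below in all 3.

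**Figure D5:**
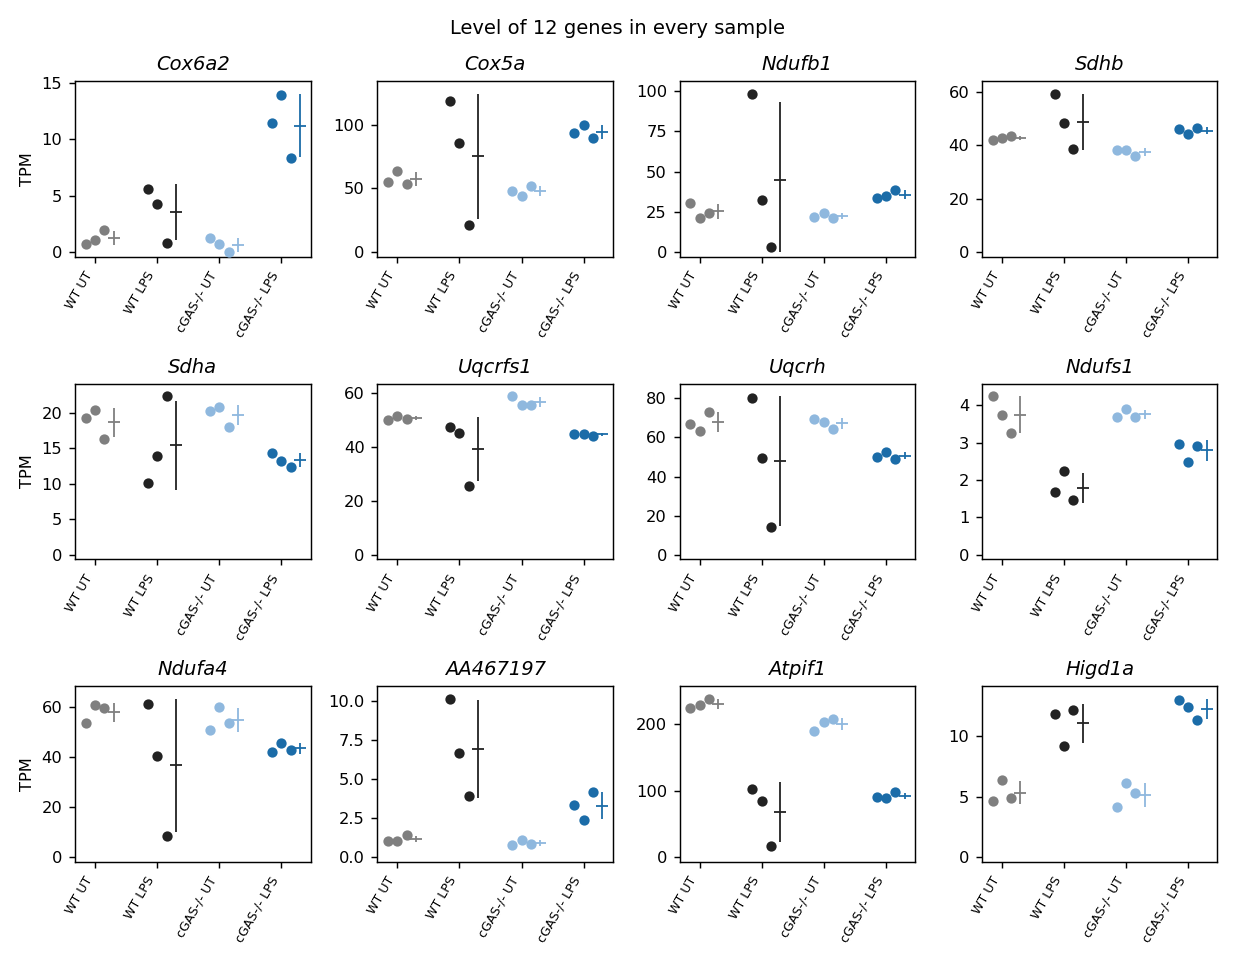
TPM of 12 genes in every sample by group, with the mean and SD of the 3 samples beside the points and SD bars ending at 0. AA467197, Atpif1 and Higd1a are genes of the surrounding lists. Cox6a2 and Cox5a lie above the UT samples in cGAS-/- LPS and in WT LPS samples 1 and 2, and Atpif1 and Ndufs1 lie below the UT samples in all 6 LPS samples.

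Genotype under LPS addresses whether respiratory chain genes differ between cGAS-/- and WT cells once LPS is present. With all samples the median member was at 0.56 for cGAS-/- LPS minus WT LPS, against 0.20 for all genes, with 40 members above 0 and 15 below. Without WT LPS sample 3 the median was -0.22, against 0.04, with 15 above and 40 below. The medians by complex turned from 0.56 to -0.23 for I, 0.30 to -0.04 for II, 0.47 to -0.22 for III, 0.54 to -0.30 for IV and 0.61 to -0.18 for V. Without WT LPS sample 1 they were instead at 1.10, 0.52, 0.80, 1.13 and 1.29 for complexes I to V. With TMM factors and all samples they were 0.29, -0.07, 0.12, 0.26 and 0.25. Leaving out WT LPS sample 3 thus turned the sign in every complex, and TMM factors turned it in complex II.

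With all samples limma called 0 members, against 2.36% of all genes, and 3 members had an unadjusted p under 0.05, as 18.8% of all genes did. Without sample 3 it called Ndufs7 alone, a core subunit with the last iron-sulphur cluster before the quinone, which was lower by 0.87 ± 0.21 (adjusted p = 0.0346), against 8.28% of all genes called and 4.44% lower. Ndufs7 was at 24.6, 13.1 and 2.19 TPM in WT LPS and at 8.55, 10.4 and 9.39 TPM in cGAS-/- LPS, so WT LPS samples 1 and 2 were above the cGAS-/- LPS samples and sample 3 below. Leaving out WT LPS sample 2 instead gave 4 higher and 8 lower, against 23.9% and 3.98% of all genes, and leaving out sample 1 gave 0, against 2.97%. The fit of the LPS groups alone called 0 members too, against 0.0421% of all genes, with 2 members at an unadjusted p under 0.05, as 7.47% of all genes were. Samples did not overlap at 4 members, all higher in cGAS-/- LPS, or 7.27%, against 17.7% of all genes (12.6% higher). These were Ndufa10, Ndufs1, Cox6a2 and Atp5b. Ndufa10 was at 15.4, 13.9 and 13.1 TPM in cGAS-/- LPS, against the 5.14 to 11.3 TPM of WT LPS (0.96 ± 0.28, adjusted p = 0.121). Atp5b was at 53.0, 58.4 and 10.7 TPM in WT LPS and above that range in all 3 cGAS-/- LPS samples (0.95 ± 0.495, adjusted p = 0.317).

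The interaction term of the same fit, the LPS effect in cGAS-/- minus that in WT cells, gave 0 calls among members with all samples, against 0.9% of all genes, with 2 members at an unadjusted p under 0.05, as 11.1% of all genes were. Its median was 0.67, against 0.27 for all genes, and -0.10, against 0.08, without WT LPS sample 3, where 0 members were called too, against 4.56% of all genes. Cox6a2 had a larger LPS difference in cGAS-/- than in WT cells by 2.07 ± 0.66 (adjusted p = 0.252), or by 1.5 ± 0.47 without sample 3 (adjusted p = 0.125), so a difference between the genotypes was not established for it.

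Genes that surround the chain were described from lists by counts in the fit of all samples, where 4.31% of all genes were higher and 23.3% lower after LPS in WT cells, and 4.76% and 9.06% in cGAS-/- cells. Of 45 assembly factors tested, 2 were higher and 7 lower after LPS in WT cells, and 1 was higher and 1 lower in cGAS-/- cells. Fitted on the compared groups alone these counts were 0 and 1 in WT, against 1.4% and 4.62% of all genes, and 5 and 8 in cGAS-/- cells, against 12.7% and 32.0%. Higd1a, a small inner membrane protein that binds complexes III and IV and is induced by hypoxia, was higher in both, at 0.94 ± 0.22 in WT (adjusted p = 0.00979) and 1.11 ± 0.22 in cGAS-/- cells (adjusted p = 0.00519), with adjusted p = 0.147 and 0.00125 in the compared groups alone. It was at 4.11 to 6.39 TPM in the 6 UT samples and at 9.18 to 13 TPM in the 6 LPS samples, WT LPS sample 3 included, without overlap. Sdhaf4, an assembly factor that binds Sdha, was lower in both, at -1.44 and -0.88 (adjusted p = 0.00266 and 0.0472, or 0.081 and 0.000312 in the compared groups alone), from 10.5 to 14.3 TPM in UT to 2.83 to 7.32 TPM in LPS. In WT cells Cmc2 (-1.42) and Higd2a (-1.33) followed. Sdha and its assembly factor Sdhaf4 were thus both lower in cGAS-/- LPS, as deposited.

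Of 13 TCA cycle genes tested, 4 were lower and 0 higher after LPS in WT cells and 2 were lower in cGAS-/- cells. Suclg2, a subunit of succinyl-CoA ligase, was at -1.34 and -0.95 in WT and cGAS-/- cells, Idh2, the mitochondrial NADP isocitrate dehydrogenase, at -1.11 and -0.96, and Fh1, fumarase, at -1.34 in WT. With TMM factors 2 were lower in WT, where 12.3% of all genes were, and 0 in cGAS-/- cells, where 6.88% were. Without WT LPS sample 3, 6 were lower in WT cells, against 26.5% of all genes. With the WT groups alone only Suclg2 was called, as lower (adjusted p = 0.0472), against 4.62% of all genes. With the cGAS-/- groups alone 1 was higher and 3 lower, against 12.7% and 32.0%. Of 20 electron carriers and feeders, 3 were lower in WT (Coq10a, Etfa and Etfdh, at -1.18, -1.11 and -0.95) and 0 were called in cGAS-/- cells. In WT cells 3 were higher and 4 lower without WT LPS sample 3, against 8.26% and 26.5% of all genes. With TMM factors the counts were 1 and 1, against 7.75% and 12.3%, and with the WT groups alone 0 and 0, against 1.4% and 4.62%. Fitted on the cGAS-/- groups alone, 4 were higher and 3 lower, against 12.7% and 32.0% of all genes. Cycs, cytochrome c, was at 27.0 to 30.6 TPM in cGAS-/- UT and 61.5 to 68.6 TPM in cGAS-/- LPS, without overlap. Of 7 regulators of mitochondrial biogenesis, 1 was lower in WT (Tfb2m, a factor of mitochondrial transcription, at -1.33) and 0 were called in cGAS-/- cells. Fitted on the compared groups alone, 1 was lower in WT, against 4.62% of all genes, and 2 in cGAS-/- cells, against 32.0%. Tfb2m was at 3.90 to 6.17 TPM in cGAS-/- UT and at 2.77 to 3.27 TPM in cGAS-/- LPS, without overlap.

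Of 7 listed modulators of respiration in LPS-treated macrophages, limma called 6 after LPS in WT cells, 3 in each direction, while in cGAS-/- cells 3 were higher and 1 was lower, against 27.6% and 13.8% of all genes called. With the WT groups alone, 2 were higher and 1 lower, against 1.4% and 4.62% of all genes. With the cGAS-/- groups alone, 4 were higher and 2 lower, against 12.7% and 32.0%. The list was made of genes tied to LPS-treated macrophages, with earlier results of these data known, so these shares do not test it. Nos2, whose product nitric oxide inhibits complex IV, was at 0.0125 to 0.112 TPM in UT and 3.06 to 19.8 TPM in LPS samples of both genotypes. AA467197, the mouse NMES1 gene and a paralog of Ndufa4, was at 0.75 to 1.40 TPM in the 6 UT samples and at 10.2, 6.68 and 3.90 TPM in WT LPS and 3.36, 2.39 and 4.14 TPM in cGAS-/- LPS. Every LPS sample was above every UT sample, and Ndufa4 itself was at 50.6 to 60.6 TPM in UT, at 61.2, 40.2 and 8.58 TPM in WT LPS and at 41.7 to 45.6 TPM in cGAS-/- LPS. Atpif1, the inhibitor of ATP synthase, was at 191 to 239 TPM in the UT samples, at 103, 83.9 and 16.6 TPM in WT LPS and at 90.5, 89.5 and 97.8 TPM in cGAS-/- LPS. It was lower by 2.11 ± 0.52 in WT (adjusted p = 0.0134), or by 1.30 ± 0.10 without WT LPS sample 3 (adjusted p = 1.22e-05), and Ucp2, an uncoupling carrier of the inner membrane, was lower by 2.15 and 1.25 in WT and cGAS-/- cells.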

How the data were processed

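RNA-seq of BMDMs from 12 samples was analysed from 1 table. The values are TPM that the authors deposited, and the submitters' processing notes name fastp, STAR, kallisto and GRCm39 without versions. That the values are TPM averaged over the transcripts of a symbol was inferred from the values and the methods. Column totals differ between samples, and read depth is unknown, so no counting intervals are given. Samples were grouped by their labels, and no column of another sample was present.

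Genes with at least 1 TPM in 3 of 12 samples, after rescaling to 1000000 for this filter only, were tested (11887). log2(TPM + 1) was fitted with limma 3.58.1 in R 4.3.3 with 1 mean per group, a variance trend and Benjamini-Hochberg adjustment over all genes tested, called at an adjusted p of 0.05. A fold change on this scale understates the change of low genes. The study's fold threshold was a log2 difference of 2. The fit was tested on simulated data. Because WT LPS samples spread widely, fits of the compared groups alone are given beside the fit of all samples.

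Named were, for each comparison and complex, the called members with the highest and lowest difference, the Sdh genes, paralog pairs and the catalytic core subunits of complexes I, III and V. Other genes named were chosen after their values were seen. The values of 1 member are not reported here by name, and it enters the counts only. The members and lists were chosen with earlier results of these data known. Alternatives were a pseudocount of 0.1 or 5, no filter or 5 TPM, TMM factors, quantile normalization, a common total, a replicate block, sample weights, no variance trend, the compared groups alone and each sample left out. Fits of 9 samples without WT LPS, and TMM within the compared groups, were chosen after seeing the data. TMM factors were computed by the published formula on TPM, as a scaling only. Near-identical copies were found with blastn 2.17.0 among annotated transcripts. Promoter windows came from RefSeq (GRCm38.p6).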

Additional observations from a re-analysis of the deposited data

How the results depend on the processing

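The count of members called depended on which samples set the spread and on the scaling. For cGAS-/- LPS against cGAS-/- UT, 1 higher and 0 lower became 14 and 11 with the compared groups alone, 13 and 11 in 9 samples without the WT LPS group, 9 and 8 with sample weights (all genes 13.2% and 35.1%), 2 higher with TMM factors (all genes 6.75%) and 32 higher with TMM factors in the compared groups (all genes 19.5%). Leaving out each sample gave 1 to 3 higher and 0 to 2 lower. Cox6a2 was called in 25 of 25 alternatives. For WT LPS against WT UT, 0 higher became 1 with a pseudocount of 5, a filter of 5 TPM or quantile normalization, 2 without the variance trend and 3 with TMM factors, and 2 lower became 0 with TMM factors or the compared groups alone. Leaving out each sample gave 0 to 8 higher and 0 to 10 lower, the 8 without WT LPS sample 2 (all genes 5.58%) and the 10 without WT LPS sample 1 (all genes 22.4%). Ndufa10 lost its call in 5 of 23 alternatives and Ndufs1 in 4 of 23. For cGAS-/- against WT UT, 0 higher became 1 in the 9 samples and 1 with TMM factors in the compared groups, and 0 lower became 1 with sample weights, 2 with the compared groups alone and 5 in the 9 samples, with 0 in either direction when any 1 sample was left out. For cGAS-/- LPS against WT LPS, 0 higher became 1 with a pseudocount of 5, and leaving out each sample gave 0 to 4 higher and 0 to 8 lower, and for the interaction 0 to 1 higher and 0 to 2 lower. The causes were not tested. With the replicate number as a block, 3 members were lower in WT LPS against WT UT and the other counts stayed at 0 or 1 as without it. Samples that share a number did not deviate together (18 pairs, r of -0.031 to 0.038). With sample weights the median member for cGAS-/- LPS against WT LPS was -0.19, where the WT LPS samples had weights of 0.346, 0.159 and 0.0352 against 1.38 to 2.57 for the others. Differences that the spread of the WT LPS samples hides cannot be seen here, and read depth is unknown.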

Other observations

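The promoter letters were set beside the WT LPS samples, a comparison chosen after the values were seen and described without a test for each of the 7 motifs. Among members tested with a promoter window, 11 held the NRF1 motif, and WT LPS sample 3 was the highest WT LPS sample at 6 of them, or 54.5%. Of the 34 members without it, sample 3 was the highest at 1, or 2.94%. The median difference of sample 3 from the cGAS-/- LPS mean was 0.62 on the log2(TPM + 1) scale with the motif and -2.18 without it. The 11 with the motif fell into 6 at 0.62 to 1.15 and 5 at -2.83 to -2.21, so that median is the lowest value of the upper set, and of the 34 without it 3 were above 0 and 31 below. In WT LPS sample 1 these medians were 0.48 and 0.62, and in sample 2 they were -0.10 and -0.10. Outside the members the shares did not differ in this way: sample 3 was the highest at 16.7% of 786 other genes with the motif and at 16.7% of 6531 without it, with median differences of -0.92 and -0.72. For the ETS motif the shares among members were 7.69% of 13 with it and 18.8% of 32 without it. The other motifs gave 6.25% of 16 with and 20.7% of 29 without the GC box, 20% of 20 and 12% of 25 for the CCAAT box, 14.3% of 7 and 15.8% of 38 for YY1, 0 of 4 and 17.1% of 41 for the TATA box, and 0 of 1 and 15.9% of 44 for kappa B. The NRF1 contrast was the widest of the 7, but it rests on 1 library, WT LPS sample 3, in which members are not replicates.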
